A study of Rattus norvegicus with 28 samples.

Results

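The proximal end of rat chromosome 20 carries the RT1 complex, which is the major histocompatibility complex (MHC) of the rat. All accessible regions of chr20 that start below position 8000000 of rn6 were taken as this segment, by position alone and without use of their values. The segment held 407 of the 56810 regions in both ATAC-seq tables, or 0.716% of them, and 1105 further regions lay on the rest of chr20. Regions are numbered here from 1 to 407 in chromosome order.

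Accessibility was measured by ATAC-seq, in which the Tn5 transposase cuts open chromatin, in the ipsilateral lumbar dorsal root ganglia (DRGs) of adult male Sprague-Dawley rats, an outbred stock, with 1 rat in each library. The 6 CCI rats had a chronic constriction injury, a loose ligation of the sciatic nerve, and were studied after 14 days. The 6 CFA rats had complete Freund's adjuvant, an inflammatory emulsion, injected into the hind paw and were studied after 48 h, and the 3 naïve rats had neither model. No sham-operated or vehicle-injected group was analysed here. Rats of both models entered the study only after a fall in the paw withdrawal threshold, and no genetic manipulation was named for any group.

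Values are log2 normalized coverage, so a difference of 1 is a doubling. The CCI table holds the CCI and naïve libraries, and the CFA table holds the CFA libraries with the same 3 naïve rats. Both tables were normalized separately, so levels are compared only within a table, and the comparisons share their controls. CCI 1, CCI 2, all naïve and all CFA libraries were sequenced in 2 runs, whereas CCI 3 to CCI 6 were sequenced in 1 run. CCI 3 and CCI 6 stood apart most often over the whole table, with 5.09% and 3.45% of all regions more than 1 from the median of the 9 libraries, against 1.04% to 1.87% in the other libraries of the CCI table. The depth of each library is not given in the tables. A ganglion mixes neurons, glia and immune cells, so a change in the share of a cell type and a change within its nuclei cannot be told apart.

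The MHC is best known for genes that show peptides to T cells. Class I molecules carry peptides from inside the cell to CD8 T cells, after the immunoproteasome subunits Psmb8 and Psmb9 cut proteins, the transporter Tap1 and Tap2 moves the peptides and tapasin (Tapbp) helps to load them. Class II molecules are made mainly by macrophages, dendritic cells and B cells and carry peptides to CD4 T cells. The class III genes between them include complement genes, the cytokine gene Tnf and heat shock genes. The MHC is among the most variable parts of a mammalian genome between individuals. In the RefSeq gene order of the rat assembly GRCr8, 61 of the 68 protein-coding genes that precede Gabbr1, a subunit of the GABA-B receptor, at the start of chr20 have names of olfactory receptors. From Gabbr1 to Bak1, a gene of programmed cell death, 177 protein-coding genes follow, and 44 genes of the chromosome have RT1 names. The assembly differs from rn6, so regions are given here by position and were not assigned to genes.

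Accessible regions were dense along the segment. They started between positions 73152 and 7984023, covered 288 kb in all and had a median width of 627 bp, against 549 bp over all regions. The median distance from a region to the next was 7792.5 bp, against 17024 bp on the rest of chr20. The mean level of the 3 naïve libraries was 6.03 over the segment, 5.67 over the rest of chr20 and 5.69 over all regions in the CCI table. These means were 6.37, 5.98 and 6.0 in the CFA table.

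The regions were not evenly spread. In 16 windows of 500 kb, counted from the chromosome end, window 1 held 15 regions and windows 2 and 3 held none. The empty stretch ran over 1170 kb, from 477953 to 1647557. Windows 7, 10 and 11 had 45, 46 and 44 regions, and the other windows held between 9 and 37. The mean naïve level in the CCI table was 4.94 in window 1 and 5.36 in window 6, and between 5.80 and 6.38 in the other windows that held regions. The segment therefore started with few regions of low level, followed by a gap, and windows 7, 10 and 11 held the most regions.

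**Figure D1:**
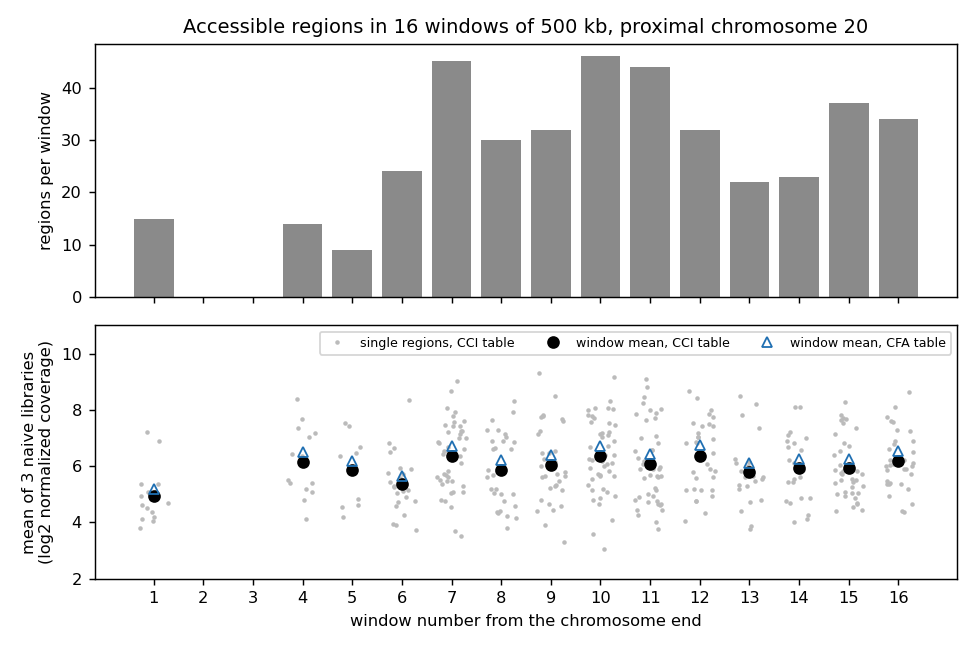
Accessible regions of proximal chromosome 20 in 16 windows of 500 kb from the chromosome end. The bars give the number of regions per window, from 0 in windows 2 and 3 to 46 in window 10, and the lower plot gives the mean log2 normalized coverage of the 3 naïve libraries for single regions and for each window, lowest in window 1 in both tables.

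Single regions ranged in mean naïve level from 3.07 to 9.32 in the CCI table, with quartiles at 5.07 and 7.02. The most accessible region was region 152, chr20:4368514-4369801, with 9.19, 9.40 and 9.37 in the naïve libraries and 9.10, 9.49 and 9.78 as the lowest, median and highest CCI value. Region 183, chr20:4697718-4699291, followed with 9.06, 9.33 and 9.10 in the naïve libraries, and region 230, chr20:5154712-5156020, with 9.19, 9.0 and 9.09. Naïve and CCI values overlapped in these 3 regions. Region 230 also varied little between rats, with a within-group SD of 0.087, lower than in all but 0.65% of the regions of the table.

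The widest region was region 181, chr20:4686552-4688713, at 2161 bp. Its naïve values were 8.03, 8.09 and 8.13. The CCI values were 8.12, 9.04, 9.41, 8.99, 8.42 and 9.38 in CCI 1 to CCI 6, so CCI 1 lay among the naïve libraries and the other five above them. The CCI mean was 0.81 ± 0.27 (SE) above the naïve mean, with an adjusted p of 0.184 by limma. After CFA it did not stand out, with 8.60, 8.67 and 8.71 in the naïve libraries of that table and 8.26 to 8.79 in the CFA libraries.

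Differences between single rats were the most pronounced feature of the segment at a pair of regions in window 7. Region 74, chr20:3145968-3147182, was at 5.24, 7.17 and 5.05 in Naive 1 to Naive 3. It was at 6.47, 7.45, 0.73, 7.57, 0.37 and 0.22 in CCI 1 to CCI 6. The values of CCI 3, CCI 5 and CCI 6 were the lowest that these libraries had at any region of the table, whereas those of CCI 2 and CCI 4 were above all naïve libraries. The CFA table had region 74 at 5.48, 7.65 and 5.28 in the same naïve libraries. It was at 7.45 in CFA a, 7.53 in CFA b and 6.50, 0.73, 1.87 and 7.38 in CFA 3 to CFA 6. Here too it was nearly absent in CFA 4 and CFA 5 and near the level of Naive 2 in CFA a, CFA b and CFA 6.

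Region 83, chr20:3264621-3265009, lay further along in the same window and showed the reverse order. It was at 4.99, 0.62 and 4.90 in Naive 1 to Naive 3. It was at 5.05, 0.22, 5.05, 0.51, 5.43 and 4.93 in CCI 1 to CCI 6. The libraries without it, Naive 2, CCI 2 and CCI 4, were those with the highest values of region 74. The CFA table had region 83 at 5.22, 1.21 and 5.11 in the naïve libraries. It was at 2.23 in CFA a, 1.35 in CFA b and 4.96, 5.90, 5.67 and 2.46 in CFA 3 to CFA 6. The lowest libraries were again those with the highest values of region 74, and the highest were CFA 4 and CFA 5, in which region 74 was nearly absent.

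The 15 rats could be sorted by these values, with a cut at 3 chosen after they were seen. In 6 rats region 83 was below 3 and region 74 high, namely 1 naïve, 2 CCI and 3 CFA rats. In 5 rats region 74 was below 3 and region 83 high, namely 3 CCI and 2 CFA rats. In the remaining 4 rats, 2 naïve, 1 CCI and 1 CFA, both regions were present, and region 74 was lower than in the 6 rats with region 83 below 3. No rat was below 3 in both. These sets of rats are not groups of the study, and each of the 3 patterns occurred in both pain models. Neither region differed between a model and naïve by limma, with differences of -2.02 ± 1.71 (SE, adjusted p = 0.592) and 0.03 ± 1.33 (adjusted p = 0.995) in the CCI table and of -0.89 ± 1.53 (adjusted p = 0.793) and -0.08 ± 1.17 (adjusted p = 0.979) in the CFA table. With errors of this size even large differences between groups were not detectable.

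**Figure D2:**
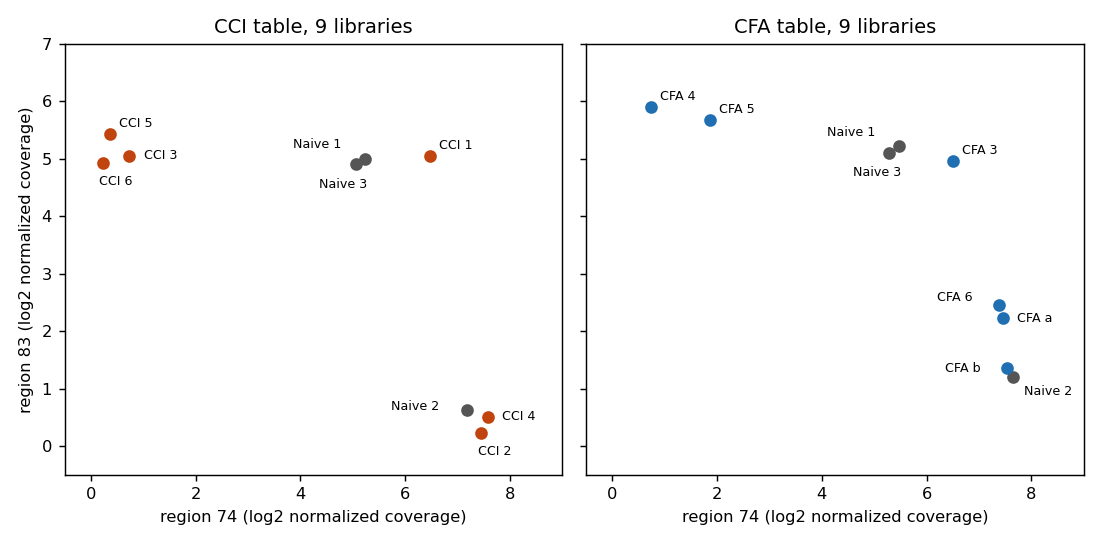
Region 74 against region 83 in every library of the CCI table and of the CFA table, both axes in log2 normalized coverage, with naïve rats in grey, CCI in orange and CFA in blue. The libraries fall into 3 patterns, with no library low on both axes, and the same 3 naïve rats are in both plots.

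Neighbouring regions followed the same order of rats to a lesser degree. They were picked after the values were seen, and their order was not tested. Region 84, chr20:3286236-3287064, was at 5.85, 5.72 and 5.0 in Naive 2, CCI 2 and CCI 4, in which region 83 was absent, and between 6.20 and 6.87 in the other 6 libraries of the CCI table. Among the CFA table's libraries it was at 6.15, 6.42, 6.24 and 6.59 in Naive 2, CFA a, CFA b and CFA 6, and between 7.07 and 7.57 in the others. Region 80, chr20:3232694-3233596, ran the other way, with 6.21, 6.15 and 5.97 in Naive 2, CCI 2 and CCI 4 and 4.81 to 5.64 in the other libraries of the CCI table. The same held in the CFA table, with 6.55, 6.20, 6.28 and 6.17 in Naive 2, CFA a, CFA b and CFA 6 and 5.29 to 5.76 in the rest. In regions 80 and 84 the sets of rats did not overlap in either table. Region 85, chr20:3298802-3300606, only a little further along, showed no such order. It was at 9.13, 8.94 and 9.05 in the naïve libraries and between 8.5 and 8.75 in the CCI libraries, so that all CCI libraries were below all naïve libraries, with a difference of -0.45 ± 0.14 (SE, adjusted p = 0.169, limma).

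A further region separated the rats in the CCI table only. Region 15, chr20:477582-477953, is the last region before the empty stretch. It was at 4.02, 3.43 and 3.96 in the naïve libraries and at 4.18, 4.88, 0.73, 4.43, 0.37 and 0.22 in CCI 1 to CCI 6, so it was absent from the same CCI rats as region 74. All libraries of the CFA table had this region, with 3.60 to 4.22 in the naïve and 3.84 to 5.15 in the CFA libraries. CFA 4 and CFA 5, in which region 74 was nearly absent, were at 3.84 and 4.0 there.

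Region 240, chr20:5374747-5375018, set apart the CCI and naïve rats with a low region 83, and not the CFA rats. It was at 5.85, 5.82 and 5.74 in Naive 2, CCI 2 and CCI 4, and between 3.11 and 4.54 in the other libraries. Naive 2 was at 6.15 in the CFA table and stood 1.6 above the next library, whereas CFA a, CFA b and CFA 6 were at 4.37, 4.13 and 3.97 and lay among the others. Its difference from naïve was -0.39 ± 0.62 (SE, adjusted p = 0.801) in the CCI and -0.89 ± 0.38 (adjusted p = 0.237) in the CFA comparison by limma.

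Such splits were few in both tables. Regions were counted in which the widest gap between neighbouring libraries was at least 2 on the log2 scale and had at least 2 libraries on both sides. Of these there were 14 in the CCI table and 6 in the CFA table, and 3 and 2 of them lay in the segment. Those of the segment were regions 15, 74 and 83 in the CCI table and regions 74 and 83 in the CFA table. The count also takes in gaps between groups. The first 8 Mb of chr8, with 85 regions, had 4 and 2. In these 4 the naïve libraries lay below the gap and all CCI libraries above it. In these 2 the naïve libraries and CFA 3 lay below it. A gap at chr15:106503907-106504483 divided the rats of the model in both tables, and so did a gap at chr3:145681972-145682485. At the chr3 region all naïve libraries lay below the gap, with CCI 3, CCI 5 and CCI 6 or CFA 3, CFA 4 and CFA 5. CCI 3, CCI 5 and CCI 6 were also the low libraries of regions 15 and 74. Gaps on chr4 and chr14, such as chr14:46653669-46653873, had CCI 3 to CCI 6 below them, the libraries sequenced in 1 run. The part of the runs was not tested. Such splits, and this set of low CCI libraries, were therefore not particular to chr20. No gap of this size set a single library apart in the segment, against 29 regions of the whole CCI table and 11 of the CFA table. The pattern at regions 74 and 83 was therefore shared by several rats and not the mark of 1 library. With a gap of at least 1 the segment had 12 such or single-library regions in the CCI table, or 2.95% against 1.44% of all regions, and 8 in the CFA table, or 1.97% against 0.778%, and no 2 neighbouring regions had the same libraries on the low side.

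The widest gaps of 1 library in the CCI table were below 2. Region 307, chr20:6338069-6338312, was at 1.78 in CCI 6, 1.94 below the next library, with 3.72 to 4.73 in the others. Region 328, chr20:6917787-6918025, was at 2.85 in CCI 1 and between 4.09 and 5.17 in the others. Region 298, chr20:6140988-6141317, was at 2.71 in Naive 2 and at 3.95 to 5.05 in the rest. Region 239, chr20:5366594-5366959, was at 2.82 in Naive 3 against 4.02 to 5.10, and region 127, chr20:3795456-3796568, at 5.12 in CCI 2 against 6.21 to 7.07. Each of these 5 gaps concerned another library and a low value. In the CFA table CFA a was lowest at region 226, chr20:5098673-5098902, at 3.33 against 4.57 to 5.25, and Naive 2 at region 59, chr20:2992500-2992852, at 3.04 against 4.09 to 4.89.

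The share of regions with a wide spread between rats was set against that of the table. A region was said to have a high spread when its SD, pooled within the pain and naïve groups, was above the 95th percentile of all regions of its table, which 5% of them were. This held for 33 regions of the segment in the CCI table, or 8.11%, against 3.80% on the rest of chr20. In the CFA table it held for 25 regions, or 6.14%, against 4.07% on the rest of chr20. The first 8 Mb of chr19, with 17.7% and 14.3%, and of chr9, with 13.7% and 11.1%, had larger shares than chr20, so the segment was not the most variable chromosome end. Regions of high spread were narrow and weak, with a median width of 388 bp and a median naïve level of 4.78 against 657 bp and 5.92 in the other regions of the segment in the CCI table. Ranked within 20 bins of like mean value, the shares were 10.1% in the CCI and 6.39% in the CFA table. Among segment regions that start below 5000000 they were 10.7% and 6.98%.

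The median pooled SD was 0.32 in the segment and 0.31 over all regions in the CCI table, and lower in the segment than over all regions in the CFA table, at 0.23 and 0.25. Only 4 regions of the segment had an SD above 1 in the CCI table and 2 in the CFA table. Among the 5 highest per table were, beside those above, region 59 in the CCI table with an SD of 0.95, and regions 49, chr20:2622941-2623208, with 0.84, 144, chr20:4074322-4074559, with 0.72, and 298 with 0.69 in the CFA table. Region 144 was at 4.97, 4.96 and 4.85 in CFA b, CFA 3 and CFA 6 and between 3.33 and 3.72 in all other libraries of the CFA table.

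Libraries CCI 3 and CCI 6 differed from the others in the segment more often than over the whole table. CCI 3 was more than 1 away from the median of the 9 libraries in 46 of the 407 regions, or 11.3%, against 5.09% of all regions. For CCI 6 the numbers were 33 regions, 8.11% and 3.45%. The other libraries had between 1 and 12 such regions in either table. Of the regions in which CCI 3 and CCI 6 deviated, 31 and 26 were high and 15 and 7 were low.

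The high regions of CCI 3 and CCI 6 came in blocks, as the map of all regions by library shows. Blocks were drawn, after the values had been seen, where a running median over 7 neighbouring regions of the mean of CCI 3 and CCI 6 was more than 0.5 above the naïve mean over at least 10 regions. This gave 4 blocks with 78 regions, or 19.2% of the segment. Block 1 ran over 27 regions from chr20:2561392 to 3078958, block 2 over 22 regions from 4631972 to 4802334, block 3 over 11 regions from 4896823 to 4948264 and block 4 over 18 regions from 5332842 to 5425264. CCI 3 and CCI 6 were a median of 1.07 and 1.10 above the naïve mean in the 78 regions, which is what the rule selected.

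**Figure D3:**
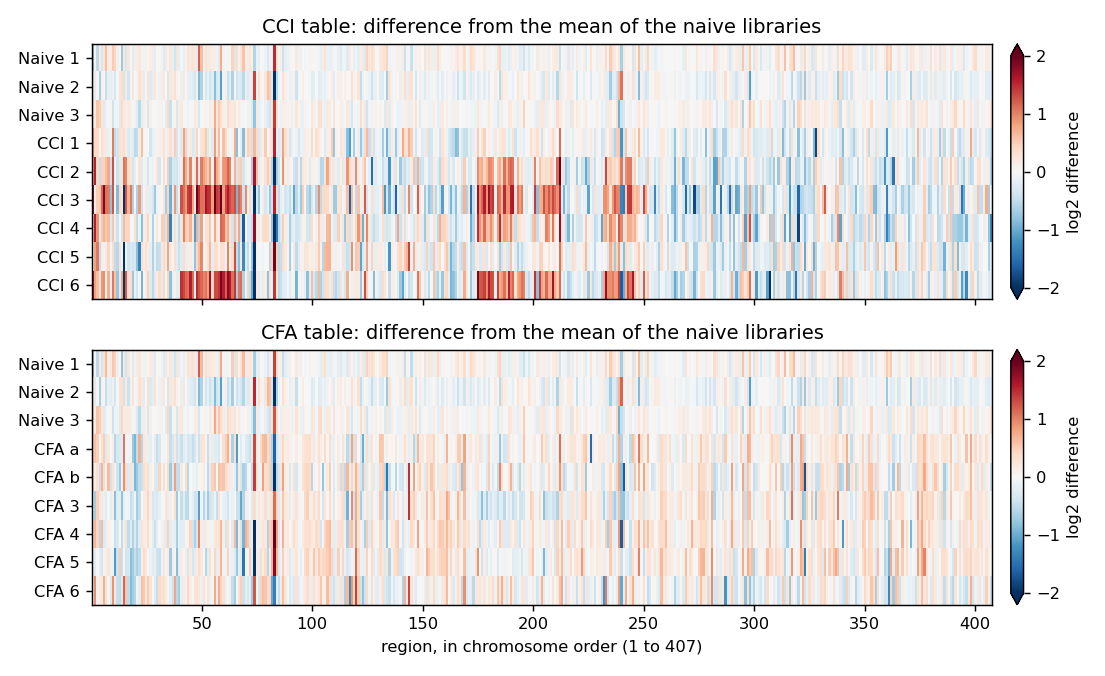
Difference of each library from the mean of the 3 naïve libraries, in log2 normalized coverage, for the 407 regions in chromosome order, with red for higher and blue for lower values and the scale ending at 2 in both directions. In the CCI table CCI 3 and CCI 6, and more weakly CCI 2 and CCI 4, have 4 red blocks that are weak or missing in CCI 1, CCI 5 and the CFA libraries, and regions 74 and 83 appear as narrow stripes in both tables.

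The other CCI libraries, which the rule did not use, fell into a pair of sets in these blocks. CCI 2 and CCI 4 were a median of 0.53 and 0.54 above the naïve mean, and CCI 1 and CCI 5 of 0.09 each, while the naïve libraries were at 0.07, -0.14 and 0.05. CCI 2 exceeded all naïve libraries in 57 and CCI 4 in 58 of the 78 regions, whereas CCI 1 did so in 26 and CCI 5 in 24. Such counts of single libraries were not made outside the blocks, so no share over all regions stands beside them. The rule did use the naïve mean, so regions with low naïve values were favoured. This raises every CCI library against naïve in the blocks, so the counts do not measure a change after CCI. Over the remaining 329 regions the medians of the 6 CCI libraries lay between -0.18 and -0.06. Of these libraries CCI 1 and CCI 2 were sequenced in 2 runs and CCI 3 to CCI 6 in 1 run, and the part of the runs in the blocks was not tested.

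In block 1 the medians of CCI 1 to CCI 6 were 0.12, 0.68, 1.32, 0.47, 0.15 and 1.27. In block 2 they were 0.04, 0.70, 1.06, 0.60, -0.22 and 1.10. In block 3 they were 0.13, 0.37, 0.97, 0.21, 0.12 and 0.78, and in block 4 0.09, 0.43, 0.74, 0.66, 0.13 and 0.84. CCI 3 and CCI 6 were the highest in all 4 blocks, which follows from the rule. Of the CCI libraries that the rule did not use, CCI 2 and CCI 4 were the highest in each block. In block 3, however, CCI 4 at 0.21 was only a little above CCI 1 at 0.13. Block 2 holds the widest region of the segment, region 181, described above. In these 4 blocks the median CFA difference was between -0.08 and -0.0014. CFA 3 was the lowest CFA library in each block at -0.32 to -0.24. CFA 6 reached 0.21 in block 2, above all naïve libraries in 12 of 22 regions, a count also without a share over all regions. No blocks were searched for in the CFA libraries.

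Since the blocks were drawn where CCI 3 and CCI 6 were high, a wide spread within the CCI group came with the choice. Of their 78 regions 14 had a high spread, or 17.9%, against 19 of the other 329, or 5.78%. Window medians of this size were not limited to the segment. The median difference of window 6, which holds most of block 1, was 0.70 between CCI and naïve, and 61 of 2376 windows of the genome with at least 10 regions had a higher one. For window 10, which holds blocks 2 and 3, it was 0.42, with 116 higher windows. Window 1, at the chromosome end, had no block by the rule but a median difference of 0.44, with 114 higher windows. Its medians were 0.23, 0.44, 0.48, 0.53, 0.09 and 0.61 in CCI 1 to CCI 6, so CCI 2, CCI 3, CCI 4 and CCI 6 were the highest there as well.

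**Figure D4:**
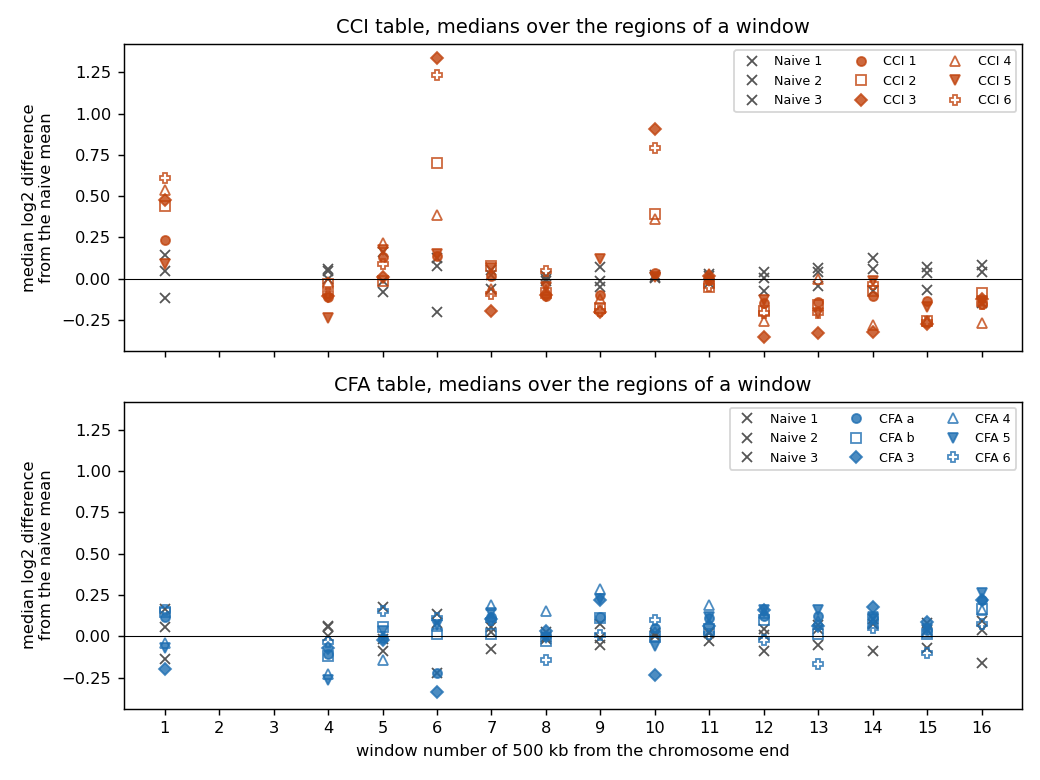
Median log2 difference of each library from the naïve mean over the regions of each 500 kb window. In the CCI table CCI 3 and CCI 6 rise to 1.34 and 1.23 in window 6 and to 0.91 and 0.79 in window 10 with CCI 2 and CCI 4 below them, and all CFA libraries stay between -0.34 and 0.28.

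Nerve injury was compared with naïve by limma over all 56810 regions, with regions called at an unadjusted p below 0.001. In the segment 3 regions rose and 0 fell after CCI, against 0.750% of all regions called higher and 0.160% called lower. These 3 are 0.737% of the segment, against 0.910% of all regions called in either direction. None of the 407 regions passed an adjusted p of 0.05, with 0.0803 as the smallest. At an unadjusted p below 0.05 there were 84 regions, or 20.6%, against 16.0% of all regions, and 43 of them were higher and 41 lower after CCI.

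Region 212, chr20:4947958-4948264, had the smallest p. It was at 2.62, 3.31 and 3.28 in the naïve libraries, and its lowest, median and highest CCI values were 4.16, 4.39 and 5.05. All CCI libraries were above all naïve libraries. The mean rose from 3.07 ± 0.39 (SD, n = 3) to 4.49 ± 0.38 (SD, n = 6). This is a log2 difference of 1.42 ± 0.24 (SE) with p = 7.75e-05 and an adjusted p of 0.0803 by limma. It is the last region of block 3 and was highest in CCI 2, at 5.05, and CCI 1 and CCI 5 were as high as CCI 6. Without CCI 3 and CCI 6 the difference was 1.47 with p = 0.000337 by limma, and within the libraries sequenced in 2 runs, which leaves 2 CCI libraries, it was 1.54 with p = 0.00218. With any 1 of the 9 libraries left out it stayed past the threshold. The naïve values of the CFA table were 2.85, 3.48 and 3.47 and the CFA values ran from 3.33 to 4.37, a difference of 0.53 ± 0.24 (SE) with an adjusted p of 0.261 by limma.

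Region 65, chr20:3024282-3024577, lay in block 1. It was at 3.39, 3.73 and 3.96 in the naïve libraries, with 4.36, 4.72 and 5.10 as lowest, median and highest CCI value. Its difference was 1.02 ± 0.22 (SE, p = 0.000648, adjusted p = 0.104, limma), and the groups did not overlap. CCI 5, which was near the naïve level in most of the block, was at 4.99 here. Without CCI 3 and CCI 6 the difference was 0.85 with p = 0.00285 by limma, which is no longer below the threshold, and within the libraries sequenced in 2 runs it was 0.71 with p = 0.0130. The call was also lost by limma without Naive 1 (0.87, p = 0.00613), Naive 2 (1.04, p = 0.00275), CCI 3 (0.96, p = 0.00148), CCI 5 (0.96, p = 0.00148) or CCI 6 (0.94, p = 0.00136).

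Region 42, chr20:2577355-2578249, lay in block 1 too. It was at 5.12, 5.50 and 5.25 in the naïve libraries, with 5.65, 6.33 and 6.62 as lowest, median and highest CCI value. The groups did not overlap, although CCI 5, the lowest, was only 0.15 above Naive 2, and the difference was 0.95 ± 0.21 (SE, p = 0.000663, adjusted p = 0.104, limma). Without CCI 3 and CCI 6 it was 0.81 with p = 0.00299 by limma, and within the libraries sequenced in 2 runs 0.95 with p = 0.00227. Leaving out any 1 library other than CCI 1 or CCI 5 ended the call, with differences from 0.86 without Naive 1 to 1.05 without Naive 2 and p from 0.00121 to 0.00529 by limma. The CFA differences of regions 65 and 42 were -0.04 ± 0.26 and -0.08 ± 0.14 (SE), with adjusted p = 0.958 and 0.794 by limma. All 3 called regions lay in blocks that CCI 3 and CCI 6 defined, which hold 19.2% of the segment. The blocks were drawn from the same values, so regions called higher after CCI were favoured to lie in them. The differences without CCI 3 and CCI 6 are those given above.

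The next regions by p lay just outside the threshold and 2 of them were lower after CCI. Region 282, chr20:5787689-5788141, had a difference of -0.81 with p = 0.00112, and region 264, chr20:5545517-5545739, of -0.81 with p = 0.00137 by limma. Both lie in window 12, outside the blocks.

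Regions in which the CCI and naïve libraries did not overlap ran mostly downward in the segment. There were 11 regions with all CCI libraries above all naïve libraries, or 2.70%, against 3.85% of all regions, and 29 with all CCI libraries below, or 7.13%, against 5.26%. The 11 had differences from 0.25 to 1.42, and 7 of them were in windows 6 and 10. The 29 had differences from -0.81 to -0.17, and 16 of them were in windows 12 to 16, the distal part of the segment. In these windows 111 of 148 regions had a negative CCI difference, or 75%, against 55.5% of all regions, and the median was -0.20. The median over the whole segment was -0.07 and over all regions -0.04. Cyclic loess normalization kept the direction in the distal windows, with a median of -0.15.

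Paw inflammation was compared with the same naïve rats in the CFA table. Here 2 regions of the segment rose and 0 fell at an unadjusted p below 0.001, against 0.565% of all regions called higher and 0.556% called lower. These 2 are 0.491% of the segment, against 1.12% of all regions called in either direction. None of the 407 passed an adjusted p of 0.05, with 0.0858 as the smallest. At an unadjusted p below 0.05 there were 64 regions, or 15.7%, against 18.9% of all regions, and 51 of them were higher and 13 lower after CFA.

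Region 161, chr20:4422553-4423391, is a strongly accessible region. It was at 8.14, 7.99 and 8.27 in the naïve libraries, with 8.53, 8.78 and 8.89 as lowest, median and highest CFA value. All CFA libraries were above all naïve libraries, and the mean rose from 8.13 ± 0.14 (SD, n = 3) to 8.75 ± 0.12 (SD, n = 6). The difference was 0.62 ± 0.12 (SE, p = 0.00033, adjusted p = 0.0858, limma). It missed the threshold without Naive 1 (0.62, p = 0.00155, limma) and without Naive 2 (0.55, p = 0.00258, limma). In the CCI table the same region was at 7.61, 7.48 and 7.73 in the naïve libraries and between 7.51 and 8.16 in the CCI libraries, a difference of 0.23 ± 0.18 (SE, adjusted p = 0.565, limma).

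Region 120, chr20:3704013-3704303, is a weakly accessible region. It was at 3.87, 4.01 and 3.98 in the naïve libraries, with 4.37, 4.74 and 5.32 as lowest, median and highest CFA value, again without overlap. The difference was 0.86 ± 0.19 (SE, p = 0.000777, adjusted p = 0.0858, limma). In the CCI table its naïve values were 3.72, 3.84 and 3.81 and its CCI values ran from 3.28 to 4.74, so the groups overlapped there, with a difference of 0.27 ± 0.26 (SE, adjusted p = 0.638, limma). Without any 1 of Naive 1, Naive 2, Naive 3, CFA b, CFA 3, CFA 4 or CFA 5 the call was lost, with differences from 0.81 to 0.90 and p from 0.00104 to 0.00464 by limma. Just outside the threshold were regions 276, chr20:5651808-5652728, and 258, chr20:5479403-5479999, with differences of 0.49 and 0.48 and p = 0.00132 and 0.00138 by limma.

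In all 5 called regions the groups did not overlap, and the two-sided p of an exact permutation test was 0.0119 in each, the smallest value possible with 84 ways to divide 9 libraries. This p follows from the lack of overlap in regions chosen by their limma p and gives the calls no further support.

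**Figure D5:**
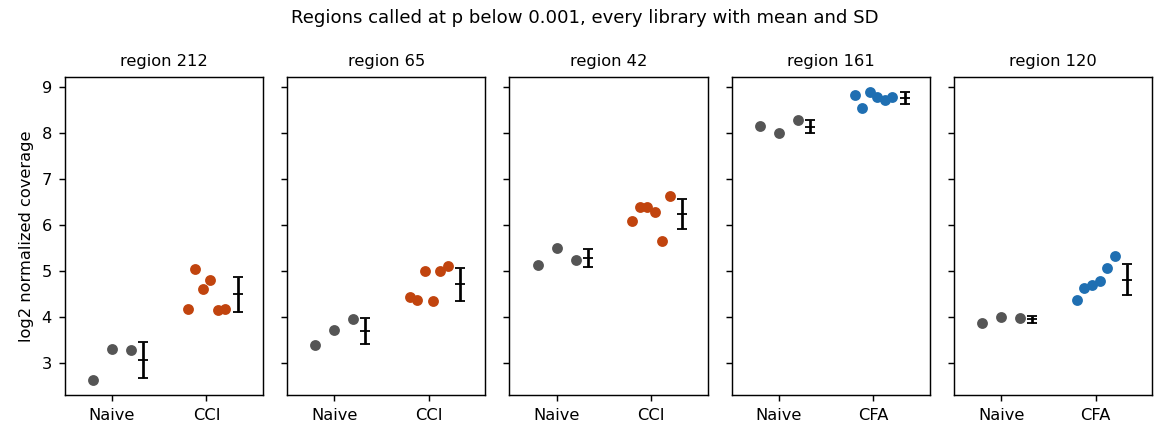
The 5 regions called at p below 0.001, 3 for CCI and 2 for CFA, with every library as a point in log2 normalized coverage and the mean and SD of each group beside the points. The points of the pain model lie above all 3 naïve points in every plot.

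Regions without overlap ran upward after CFA. All CFA libraries were above all naïve libraries in 39 regions, or 9.58%, against 5.39% of all regions, and below them in 5 regions, or 1.23%, against 5.65%. The 39 had differences between 0.13 and 0.86 with a median of 0.41. They were spread over 11 windows, and 17 of them were in windows 12 to 16. Region 152, the most accessible region of the segment, was among them, with 9.77, 9.94 and 9.92 in the naïve and 10.16 to 10.55 in the CFA libraries, a difference of 0.47 ± 0.12 (SE, p = 0.00304, adjusted p = 0.103, limma). In windows 12 to 16 only 53 of 148 regions had a negative CFA difference, or 35.8%, against 49.2% of all regions, and the median was 0.09. In the distal part of the segment most regions were thus below naïve after CCI, and most were above it after CFA. Both shares are relative to the same 3 rats, and the amounts were small. How many single regions did both was not counted. Among windows of the genome with at least 10 regions, the CCI medians of windows 12 to 16 lay between percentiles 5.13 and 26.3. Their CFA medians lay between percentiles 42.8 and 88.9, and that of window 15 was -0.0024. The difference between the models was not tested.

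Expression of MHC genes was read in 2 RNA-seq libraries of CFA rats, with 10520647 and 28825688 counts on genes. The counts carry Ensembl identifiers only, and names could be paired for genes in the study's own lists of changed genes, as far as these lists were used here, so that what was named depends on those lists. Of 124 genes of the MHC and its flanks 17 could be paired, with 0 of 32 class I, 0 of 10 class II, 1 of 5 antigen processing, 6 of 43 class III, 3 of 17 extended class I and 7 of 17 extended class II genes. The RT1 genes themselves were therefore not analysed here. Values are given as CPM, counts scaled to the library total and not to gene length, and are not compared between genes.

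Tap2, a subunit of the peptide transporter, had 155 and 442 counts, or 15.0 ± 0.42 CPM (SD, n = 2). Among the class III genes, the splicing helicase gene Ddx39b was at 85.9 ± 14.1 CPM, the Notch receptor gene Notch4 at 9.21 ± 1.35 CPM and Prrt1, which encodes a protein of AMPA receptor complexes, at 15.4 ± 0.28 CPM. Ager, which encodes a receptor for glycated proteins and alarmins, had only 11 and 14 counts, and the meiotic gene Msh5 11 and 16 counts. The heat shock gene Hspa1a was paired with 2 identifiers, at 34.7 ± 4.73 and 38.3 ± 4.23 CPM, and as near-identical copies share reads these values are uncertain. Of the extended regions, the retinoid receptor gene Rxrb was at 31.2 ± 3.76 CPM and Daxx, a histone chaperone, at 15.5 ± 0.25 CPM. The collagen gene Col11a2 was low, with 27 and 84 counts. Vars2, Dhx16, Trim39, Rgl2, Phf1 and Bak1 had mean values between 10.1 and 20.6 CPM. All genes named here had counts in both libraries.

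The tissue was checked with markers, of which 9 of 23 could be paired. The neurofilament genes Nefl, Nefm and Nefh were at 9676 ± 162, 11580 ± 8.37 and 7708 ± 783 CPM (SD, n = 2). The nociceptor genes Scn10a, Scn11a and P2rx3 were at 559 ± 26.4, 362 ± 19.0 and 480 ± 25 CPM. Of 5 markers of satellite glia and Schwann cells 2 were paired, S100b at 1145 ± 24.5 CPM and the gap junction gene Gja1 at 39.7 ± 1.09 CPM. Markers of macrophages, T cells and muscle could not be paired. No naïve or CCI library of RNA was analysed here, so expression was not compared between groups.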

How the data were processed

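The authors trimmed the ATAC-seq reads and placed them on rn6 with Bowtie2. Poorly mapped and duplicate reads were discarded, cut positions were corrected for Tn5, libraries were downsampled and MACS2 called peaks in every sample. They deposited log2 normalized coverage for the same regions in 2 tables. The columns of a table have nearly the same distribution of values, so differences in total accessibility between rats are lost, and reads that fit near-identical RT1 copies equally well are filtered out. For RNA-seq, aligned with HISAT2, the authors deposited the count of reads of each Ensembl gene. The base caller named in the submitters' notes is CASAVA 1.8.2.

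Groups came from the labels, and repeat runs were already merged. The names of 2 columns of the CFA table are also labels of RNA-seq samples, so these are called CFA a and CFA b and carry no number.

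Each model was compared with naïve by limma 3.58.1 in R 4.3.3 over all 56810 regions (two-sided, moderated variances, unadjusted p below 0.001, Benjamini-Hochberg adjusted p beside it), which was tested on simulated data. Exact permutation tests used the 84 splits. Tables and figures were made with Python 3.11.15, numpy 2.4.6, pandas 2.3.3 and matplotlib 3.10.9. Regions named were those called, the 5 highest in SD and in the gap of 1 library per table, the 3 highest in level and the widest. Members, lists and tests were chosen with earlier results of these data known. Alternatives included sample quality weights, an intensity trend or robust prior in the fit, other normalizations, filters, thresholds and segment limits, a replicate block, the libraries sequenced in 2 runs and leaving out libraries. Leaving out CCI 3 and CCI 6 together and the blocks were chosen after seeing the data. Where nothing says that samples shared a litter or batch, p-values measure the spread between these rats. No sequence or annotation of rn6 was used here. The values of 1 paired gene are not reported here.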

Additional observations from a re-analysis of the deposited data

Results flagged for a closer look

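In the 22 named regions, the 6 libraries of each pain model were searched for a lowest or highest library whose distance from the next, divided by the range of the group, was above the 95% critical value of Dixon's test for 6 samples. About 1 in 20 groups passes by chance, and 2 of 44 did. Region 226, chr20:5098673-5098902, passed in the CFA libraries with a ratio of 0.731, with CFA a at 3.33 and the next library at 4.74. Region 307, chr20:6338069-6338312, passed in the CCI libraries with 0.669, with CCI 6 at 1.78 and the next library at 3.72. Both regions were named because of a wide gap of 1 library, so the ratio is a description of that gap.

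In 1 of the 407 regions, chr20:5112409-5114057, all CCI libraries were below and all CFA libraries above the naïve libraries. Its log2 difference from naïve was small in both models, at -0.23 for CCI and at 0.13 for CFA. The difference between the models was not tested, since the tables were normalized separately and share the naïve rats. Such regions were not counted outside the segment, so no share over all regions stands beside this count.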

How the results depend on the processing

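The counts of called regions were small and moved with the settings. The share of all regions called stands in parentheses. For CCI, where 3 were called (0.910%), there were 7 with an intensity trend (2.10%), 6 with sample quality weights (1.85%), 1 with the replicate block (0.676%), 0 within the libraries sequenced in 2 runs (0.224%), 1 without CCI 3 and CCI 6 (0.470%), 17 at p below 0.01 (5.60%, against 4.18% of the segment) and 0 at an adjusted p below 0.05 (0.0158%). With 1 library left out there were between 1, without CCI 3 (0.657%) or CCI 6 (0.554%), and 6, without CCI 1 (1.54%) or CCI 5 (1.66%), or 1.47% of the segment. For CFA, where 2 were called (1.12%), there were 20 with an intensity trend (4.16%, against 4.91% of the segment), 26 at p below 0.01 (6.94%, against 6.39% of the segment) and 0 at an adjusted p below 0.05 (0 of all regions). With 1 library left out there were between 0, without Naive 2 (0.507%), and 4, without Naive 3 (1.01%). With the intensity trend 9 regions for CCI and 31 for CFA also passed an adjusted p of 0.05, or 2.21% and 7.62% of the segment against 2.25% and 6.54% of all regions. The 5 called regions kept their direction under each alternative, and stayed past the threshold in 8 of 18 (region 42), 8 of 17 (region 65), 16 of 17 (region 212), 6 of 14 (region 120) and 13 of 15 (region 161). The numbers of CCI and naïve libraries did not pair them, with correlations of deviations of -0.06, 0.07 and -0.03, so the replicate block is a change of the fit only. No paired analysis was possible for CFA because only number 3 is shared with naïve columns.

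The share of regions with a high spread in the CCI table was 15.0% above the 90th percentile and 1.72% above the 99th percentile. In the CFA table these shares were 8.60% and 1.72%. By definition 10% and 1% of all regions lie above these percentiles, so the CFA share at the 90th was lower than over all regions. At the 95th percentile the shares were 8.60% over CCI and 5.16% over naïve libraries alone in the CCI table. They were 5.41% over CFA and 5.65% over naïve libraries alone in the CFA table. Without CCI 3 and CCI 6 the CCI table had 5.90%. With 1 library left out the shares were 5.65% to 8.35% in the CCI and 4.91% to 6.14% in the CFA table. With a gap of at least 1 in place of 2, 7 and 6 regions, or 1.72% and 1.47%, had a single library apart, against 1.26% and 0.679% of all regions. With the gap of 2, leaving out 1 library gave 0 to 1 such regions in both tables. The mean naïve level was 6.0 to 6.07 and 6.34 to 6.42 with 1 naïve library left out. The depth of each library is not given in the tables, and 3 naïve rats limit every comparison.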
